A study of Homo sapiens with 2 samples.

Results

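The genes described here encode the initiation and elongation factors of cytosolic translation. They were taken as the protein-coding genes of GENCODE v44 whose symbol begins with EIF and a digit, or with EEF1A, EEF1B, EEF1D, EEF1G or EEF2, without hyphenated readthrough genes and without the kinase and methyltransferases that act on elongation factors. The rule found 62 genes, 56 for initiation and 6 for elongation, among 59026 genes with at least 1 listed transcript. It used names and no measured value. RNA-seq was performed on total RNA, depleted of rRNA, from HEK293 Flp-In T-Rex cells, a derivative of an established human embryonic kidney line with 1 genomic site for a tetracycline-controlled transgene. The cells were grown without treatment, and the design held 1 group of 2 libraries, replicate 1 and replicate 2, with no statement on whether these were separate cultures. The SDs below therefore measure the spread between these libraries, which may be technical, and no p-value is given because 2 libraries cannot give a two-sided sign-flip p below 0.5.

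Initiation in the cytosol starts when eIF2, charged with GTP and the initiator tRNA, joins eIF1, eIF1A, eIF3 and eIF5 on the small ribosomal subunit. The cap-binding protein eIF4E, the scaffold eIF4G and the RNA helicase eIF4A recruit this assembly to the mRNA cap, and eIF5B promotes joining of the large subunit. During elongation eEF1A delivers aminoacyl-tRNA to the ribosome, the eEF1B subunits recharge eEF1A with GTP, and eEF2 drives translocation. The mRNAs of several elongation factors belong to the TOP class, which starts with a C followed by a run of pyrimidines and whose translation responds to mTOR signalling.

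Replicate 1 held 25158962 estimated counts and replicate 2 held 27143860. Levels are given per length, as estimated counts divided by transcript length, scaled to 1000000 per library and summed per gene. Levels on a subset of transcripts or with other lengths were scaled anew to 1000000, so their size does not compare directly with the levels given elsewhere. Normalised counts, which keep the length of the transcript in the value, were used to compare the libraries. The genes checked as HEK293 markers had mean levels of 307 for VIM, 22.3 for NEFL, 1.94 for LHX1, 0.694 for PAX2 and 0.281 for NEFM. Of the genes checked for other cells, the liver gene ALB and the leukocyte gene PTPRC were listed at 0 in both libraries. HBB (20.2 and 20.9), HBA1 (16.9 and 22.4), COL1A1 (4.21 and 5.50) and EPCAM (36.7 and 28.5) were not, and lay above LHX1, PAX2 and NEFM. The part of these genes in the values below was not tested.

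In bulk RNA a level cannot tell the number of cells that hold an mRNA from the amount in each cell. The 62 factor genes took 2.46% ± 0.113 of all estimated counts (SD, n = 2) and reached a summed level of 13371 in replicate 1 and 12005 in replicate 2. The 6 elongation genes held 55.3% of that level in each library. EEF1A1, which encodes the main eEF1A, alone held 27.9% ± 0.944 of it (SD, n = 2), followed by EEF2 with 11.5% ± 0.853, EEF1G with 9.81% ± 0.0195 and the helicase gene EIF4A1 with 6.71% ± 0.278. On protein-coding transcripts alone the EEF1A1 share was 9.43% ± 11.7, and with the counts of named pseudogenes added it was 40.96%. These 4 genes were the members among the top 100 of 17116 protein-coding genes by level, at ranks 1, 34, 45 and 74. In all, 25 members ranked among the top 1000. The median level of the 58 members with a level of at least 1 in both libraries was 53.6, beside a median of 11.9 over the 11985 protein-coding genes that passed the same limit. The other 4 members were EIF1AY, EIF4E1B, EIF4EBP3 and EIF5AL1.

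**Figure D1:**
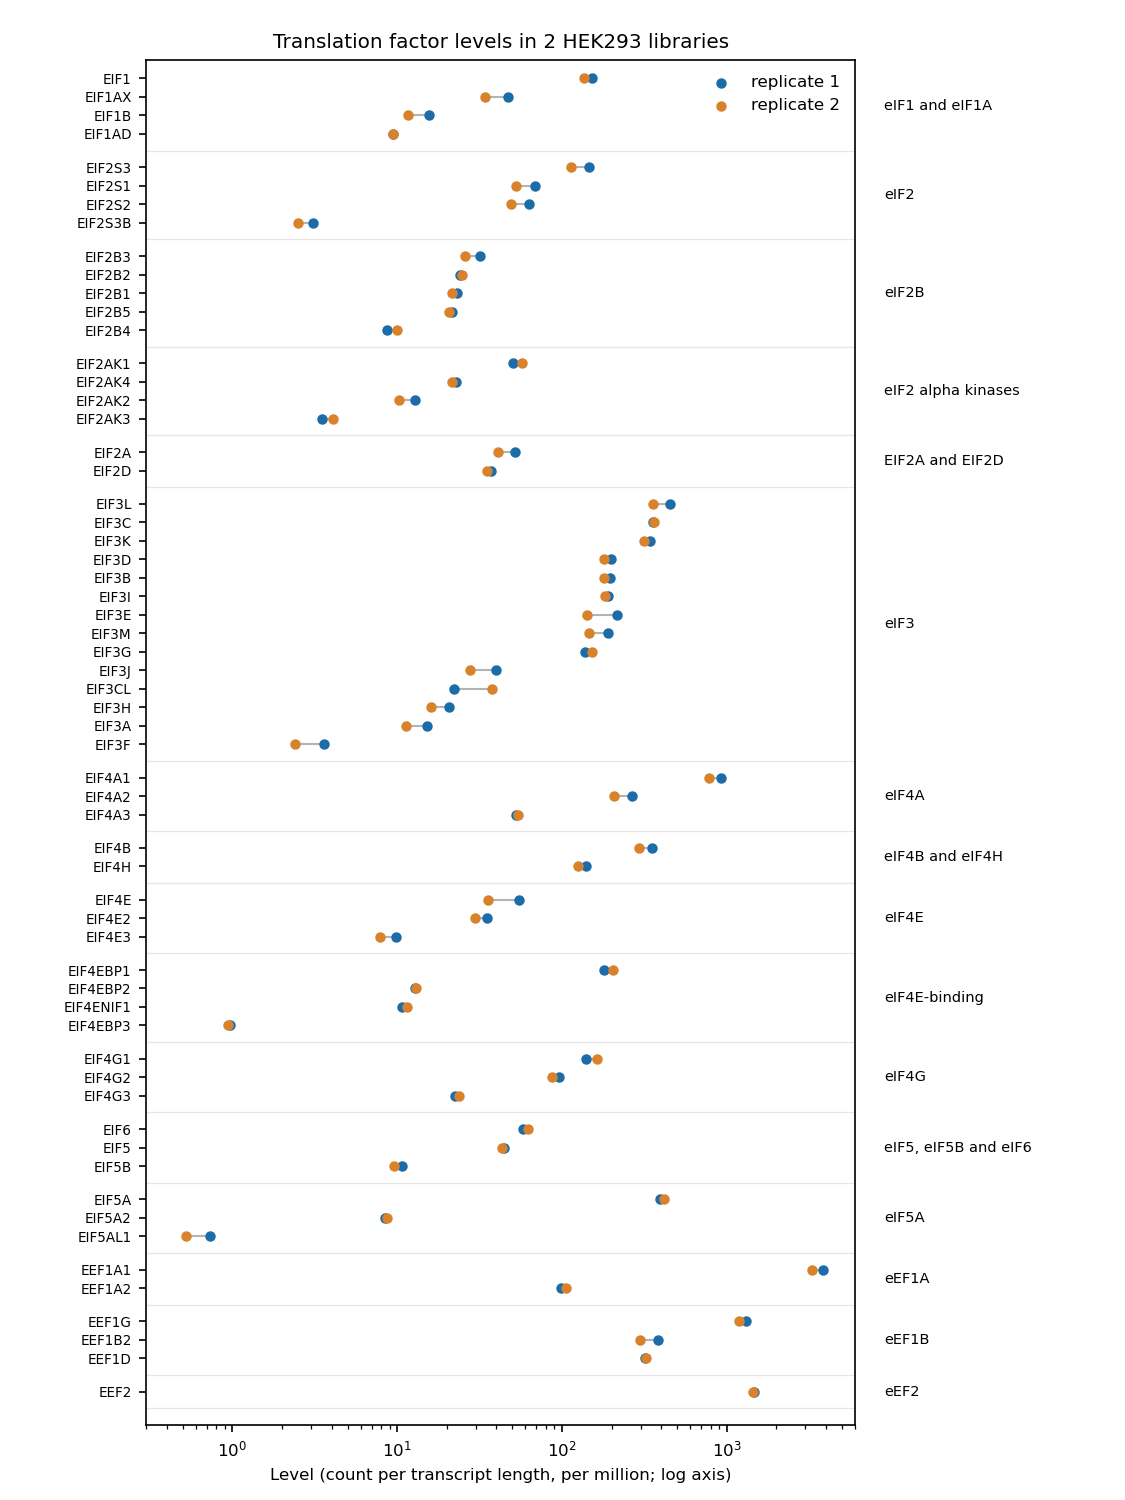
Level of each translation factor gene (count per transcript length, scaled to 1000000 per library, log axis) in replicate 1 and replicate 2, grouped by factor, for the 60 genes whose mean normalised count was at least 10. EEF1A1, EEF2, EEF1G and EIF4A1 sit furthest to the right, and EIF5AL1 and EIF4EBP3 lie lowest, with levels under 1.

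The first bases of the mRNAs were examined because the members with the highest levels include textbook TOP mRNAs. RefSeq promoter entries (GRCh38.p14) were found for 51 of the 62 genes and not for EEF1A2, EEF1D, EIF2AK1, EIF2S2, EIF3A, EIF3CL, EIF3E, EIF3G, EIF3H, EIF3L and EIF4EBP1. The pattern searched on the transcript strand was a C at the annotated start followed by 4 bases that are each C or T, a choice made after the levels were seen. It was present in 13 of the 68 promoter entries of members (19.1%), beside 4.07% of all 35116 entries. By gene it was present in 13 of the 51 members (25.5%), beside 7.67% of the 9784 protein-coding genes with a level of at least 1 in both libraries and an entry. The windows of 30 bases shown here hold 10 bases before and 20 bases from the annotated start, and capitals mark the pattern; EEF1G, EIF4A1 and EIF5A are shown as high-level members without it, and EIF2S3 and EIF2S3B as a gene and its copy.
EEF1A1 (chr6:73521013-73521042, minus strand): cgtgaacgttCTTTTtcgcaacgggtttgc
EEF2 (chr19:3985444-3985473, minus strand): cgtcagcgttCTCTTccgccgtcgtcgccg
EEF1B2 (chr2:206159885-206159914, plus strand): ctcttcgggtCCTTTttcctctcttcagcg
EIF4B (chr12:53006446-53006475, plus strand): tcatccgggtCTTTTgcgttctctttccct
EIF4A2 (chr3:186783567-186783596, plus strand): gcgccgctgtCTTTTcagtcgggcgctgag
EIF3K (chr19:38619178-38619207, plus strand): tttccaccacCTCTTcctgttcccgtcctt
EIF2S3 (chrX:24054946-24054975, plus strand): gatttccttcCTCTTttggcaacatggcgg
EIF2S3B (chr12:10505880-10505909, plus strand): gactttcttcCTCTTttggcaacatggcgg
EEF1G (chr11:62573872-62573901, minus strand): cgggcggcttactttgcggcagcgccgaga
EIF4A1 (chr17:7572815-7572844, plus strand): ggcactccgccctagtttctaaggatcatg
EIF5A (chr17:7306989-7307018, plus strand): tgggaacccgaccacactagcgcgctagaa

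The other members with the pattern were EIF3D, EIF3F, EIF3M, EIF2A and EIF2D. The 13 members with it had a median level of 190 (lowest 2.79, highest 3551), and the 38 without it a median of 26.7. Over the protein-coding genes with a level of at least 1 in both libraries the medians were 17.4 with the pattern and 12.1 without it. The 38 members include EIF1AY, EIF4E1B, EIF4EBP3 and EIF5AL1, which lie under that level, so the medians and the shares by gene cover unlike sets. A match describes letters at an annotated start, several genes have more than 1 annotated start, and no measurement of translation belongs to these data.

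Among the elongation genes, EEF1A1 (chromosome 6, 73489308 to 73525587, minus strand, GRCh38) stood at a level of 3826 in replicate 1 and 3275 in replicate 2. EEF1A2, its paralogue known from neurons and muscle, stood at 98.8 and 105.9. EEF1A1 was thus 34.6-fold higher, with log2 ratios of 5.28 and 4.95. On protein-coding transcripts alone this ratio no longer exceeded its spread (mean log2 3.54, SD 2.96), and on the 2 of 12 EEF1A1 transcripts whose version equals that of GENCODE v44 it was -2.53. EEF2 (chromosome 19, 3976056 to 3985463, minus strand) had 1456 and 1452, with an SD of 2.77. The eEF1B complex consists of the nucleotide exchange subunits EEF1B2 and EEF1D and the structural subunit EEF1G. EEF1G had 1309.9 and 1179, EEF1B2 had 379.9 and 298.7, and EEF1D had 319.4 and 324.2. EEF1G lay above both other subunits by more than the spread between the libraries, 3.87-fold above EEF1D, whereas EEF1B2 and EEF1D changed order between the libraries. On transcripts of the same version EEF1G stood at 0.889 and EEF1B2 at 377.5. That set leaves out EEF1G-201, which held 99.9% of the EEF1G counts, so this order does not compare the subunits. EEF1A1 was 2.44-fold above EEF2 and 2.85-fold above EEF1G, and EEF2 was 1.17-fold above EEF1G, 3 pairs chosen after the values were seen. On protein-coding transcripts alone none of these 3 differences exceeded its spread, and EEF1A1 lay below EEF2 and EEF1G (mean log2 -1.86 and -1.82).

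Processed pseudogenes bear on EEF1A1. Its 49 named pseudogenes together held 130574 and 94173 normalised counts, beside 226368 and 187393 on EEF1A1 itself, which is 35.0% ± 2.22 of the sum (SD, n = 2). Nearly all of these were assigned to EEF1A1P5, with 128628 and 92518. Reads that fit both the gene and its copies are divided by estimation, so the split is uncertain. In 3 other members the named pseudogenes held over 10% of the sum, namely EIF3F (53.1% ± 12.9), EIF4E (22.6% ± 8.24) and EIF2S2 (17.1% ± 1.79), and in the other 24 members that have named pseudogenes the share was lower.

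Of the factors that form the first complexes on the small subunit, EIF1, which guards start codon selection, stood at 151.6 and 136.8. Its paralogue EIF1B had 15.6 and 11.6, so that EIF1 was 10.7-fold higher (log2 3.42). This log2 ratio was 0.66 on protein-coding transcripts alone. EIF1AX, the X-linked gene for eIF1A, had 46.7 and 33.9, and EIF1AD, named for an eIF1A-like domain, had 9.49 and 9.39. EIF1AY, the Y-linked copy, held 1 estimated count in each library, under the limit of 3 counts used for detection, so no ratio is given. EIF5, the GTPase-activating partner of eIF2, had 44.2 and 43.3. EIF6, which keeps the large subunit free of the small one, had 57.7 and 61.9, and EIF5B had 10.7 and 9.50. EIF1 lay 3.29-fold above EIF5, a pair also chosen with the values known, and on protein-coding transcripts alone the difference did not exceed its spread (mean log2 0.12).

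EIF2S3, the gamma subunit that binds GTP and the initiator tRNA, had 146.5 and 113.3. EIF2S1, the alpha subunit phosphorylated under stress, had 68.1 and 52.9, and EIF2S2, the beta subunit, had 63.5 and 49.0. The range from EIF2S3 to EIF2S2 was 2.31-fold, with a log2 range of 1.21 in both libraries, and EIF2S1 and EIF2S2 did not differ by more than their spread. By normalised counts the log2 range was 2.14, and with the canonical transcript's length for each gene it was 2.40. EIF2S3B, a copy of EIF2S3 on chromosome 12, had 3.08 and 2.49, which is 46.5-fold below EIF2S3. As these sequences are near-identical, counts of EIF2S3B are uncertain.

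The nucleotide exchange factor eIF2B had a summed level of 109 and 103, against 281 and 218 for the eIF2 genes. Its subunits EIF2B3 (31.8 and 26.0), EIF2B2 (24.0 and 24.9), EIF2B1 (23.1 and 21.6) and EIF2B5 (21.4 and 20.6) lay close together. EIF2B4, the delta subunit, was lowest with 8.61 and 9.92, so that the complex spanned 3.12-fold. EIF2B3 and EIF2B2 did not differ by more than their spread, nor did EIF2B1 and EIF2B5, and EIF2B4 was below each of the other 4. EIF2B2 was lowest instead on protein-coding transcripts alone, at 4.97, with EIF2B3 highest (log2 range 4.08), and with canonical lengths EIF2B2 was again lowest, at 7.18. EIF2S1 was 2.86-fold above EIF2B5, the catalytic subunit, but with the canonical transcript's length for each gene this difference did not exceed its spread (mean log2 0.24). EIF2A and EIF2D, which can deliver initiator tRNA outside the eIF2 route, had 52.2 and 41.1 and 37.1 and 35.3.

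The 4 kinases of eIF2 alpha answer to different stresses. EIF2AK1 (HRI), which senses haem and mitochondrial stress, was highest with 50.6 and 57.1. EIF2AK4 (GCN2), which senses uncharged tRNA, had 22.7 and 21.5. EIF2AK2 (PKR), the sensor of double-stranded RNA, had 12.8 and 10.3, and EIF2AK3 (PERK), the sensor of unfolded protein in the endoplasmic reticulum, had 3.47 and 4.06. All 6 pairs of these kinases differed by more than the spread, EIF2AK2 and EIF2AK4 the least (0.520-fold for EIF2AK2 over EIF2AK4) and EIF2AK1 and EIF2AK3 the most (14.3-fold). On transcripts of the same version EIF2AK2 and EIF2AK4 did not differ by more than their spread (mean log2 -0.13). That set leaves out EIF2AK2-201 and EIF2AK4-201, which held 82.0% and 85.9% of the counts of these genes, so it compares minor transcripts only. By normalised counts the order of the kinases was the same, with EIF2AK1 at 3916 and 3512 and EIF2AK4 at 2962 and 2787.

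The 13 subunits of eIF3, the largest initiation factor, spanned 135-fold, or 7.08 on the log2 scale. EIF3L (454.1 and 355.8), EIF3C (355.1 and 362.8) and EIF3K (340.7 and 313.8) were highest, and EIF3L and EIF3C changed order between the libraries. EIF3D (199.7 and 179.4), EIF3B (194.6 and 180.8), EIF3I (189.2 and 182.0), EIF3E (215.4 and 141.3), EIF3M (190.4 and 145.0) and EIF3G (138.6 and 152.3) followed. None of these neighbours differed by more than their spread. EIF3J, the loosely bound subunit (40.0 and 27.7), EIF3H (20.8 and 15.99), EIF3A, the scaffold subunit (15.2 and 11.3), and EIF3F (3.61 and 2.40) were lower. EIF3H and EIF3A did not differ by more than their spread, and EIF3F was below each of the others. The order depended on the transcripts counted. On protein-coding transcripts alone EIF3L stood at 23.1, below EIF3A (35.5), EIF3H (48.7) and EIF3J (87.3), and EIF3K was highest, as it was with canonical lengths. With the counts of named pseudogenes added EIF3F stood at 14.1 and EIF3A was lowest, and the log2 range was 4.94.

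**Figure D2:**
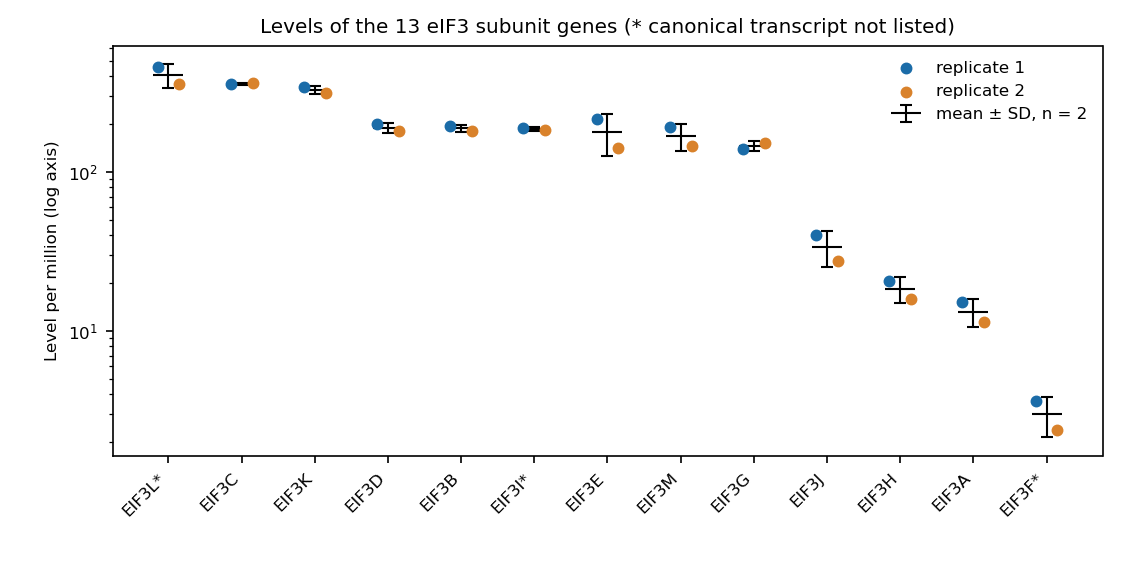
Level of the 13 eIF3 subunit genes (scaled to 1000000 per library, log axis) in replicate 1 and replicate 2, with the mean and SD (n = 2), in order of the mean. The 9 subunits from EIF3L to EIF3G stand between 145 and 405, and EIF3J, EIF3H, EIF3A and EIF3F lie at or below 33.9; asterisks mark EIF3L, EIF3I and EIF3F, whose Ensembl canonical transcript is not among those summed.

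Of the 78 pairs of eIF3 subunits, 63 were ordered alike in both libraries and differed by more than the sum of their SDs. Over all pairs of the 11985 protein-coding genes the same call was made for 87.1%, and over the pairs within 2-fold of each other for 60.8%. Within 2-fold, 13 of 28 eIF3 pairs were called. The canonical transcripts of EIF3F, EIF3I and EIF3L in GENCODE v44 were not among the transcripts that could be summed, so the totals of these 3 genes may lack counts; without them the highest and lowest subunits were EIF3C and EIF3A, the log2 range was 4.76, and 36 of 45 pairs were called. EIF3A ranked 10 among the 13 subunits by normalised counts (2621 and 1768), and EIF3C ranked 1.

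EIF3C and EIF3CL are near-identical neighbours on chromosome 16 (28688558 to 28735727 and 28379579 to 28403841). EIF3CL had levels of 22.1 and 37.4, 12.5-fold below EIF3C, with log2 ratios of EIF3C to EIF3CL of 4.01 and 3.28. Their normalised counts differed in opposite directions between the libraries, with 14047 and 13109 for EIF3C and 1872 and 3105 for EIF3CL, and their sum was 15919 and 16214. Reads shared by the copies make this split uncertain.

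Among the cap-binding and helicase factors, EIF4A1 (chromosome 17, 7572824 to 7579006, plus strand) had 924.0 and 782.4, and EIF4A2, the second helicase of this step, had 265.1 and 208.2. EIF4A3, which belongs to the exon junction complex rather than to initiation, had 52.7 and 54.1. The helicase genes thus kept 1 order in both libraries, with EIF4A1 3.62-fold above EIF4A2 and 15.9-fold above EIF4A3. The helicase cofactors EIF4B and EIF4H stood at 350.6 and 292.2 and at 139.1 and 125.3, a 2.42-fold difference. The scaffold EIF4G1 had 139.04 and 164.1, EIF4G2, which lacks the eIF4E-binding site, had 96.3 and 86.4, and EIF4G3 had 22.6 and 23.8. EIF4G1 exceeded EIF4G2 by 1.66-fold and EIF4G3 by 6.51-fold.

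EIF4E, the cap-binding protein, had 55.2 and 35.7, below EIF4A1, EIF4A2, EIF4B, EIF4H, EIF4G1 and EIF4G2 and above EIF4G3. EIF4E2, a cap-binding paralogue tied to repression, had 34.8 and 29.8, and this was the 1 paralogue pair whose difference did not exceed the spread, with log2 ratios of 0.66 and 0.26. With the canonical transcript's length for each gene the order turned (mean log2 -1.03). EIF4E3 had 9.85 and 7.85. EIF4E1B, known from oocytes, held 2 and 6 estimated counts, and no ratio is given. In pairs chosen after the values were seen, EIF4A1 was 5.63-fold above EIF4G1, and EIF4G1 was 3.40-fold above EIF4E.

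Of the genes for proteins that bind and restrain eIF4E, EIF4EBP1 had the highest level per length. EIF4EBP1, an mTOR target, had 180.5 and 203.4, EIF4EBP2 had 12.8 and 12.9, and EIF4EBP3 had 0.973 and 0.939. EIF4EBP1 was 14.9-fold above EIF4EBP2 per length, and 1.43-fold above it by normalised counts (3584 and 4010 against 2655 and 2634). Of the EIF4EBP1 counts, 2923 and 2986 lay on EIF4EBP1-202, whose coding sequence is not defined. The protein-coding EIF4EBP1-201 had 660 and 1024, fewer than EIF4EBP2. EIF4EBP1 was 4.32-fold above EIF4E, but not by more than the spread on protein-coding transcripts alone (mean log2 0.33). EIF4ENIF1, the nuclear import partner of eIF4E, had 10.7 and 11.5. The 18.7 and 17.7 normalised counts of EIF4EBP3 lie beside 753 and 718 on SRA1 on the opposite strand. Without a stated strand setting, reads from such overlaps cannot be told apart. Of the 62 members, 26 are overlapped by an opposite-strand gene with a mean of at least 10. No share over all genes stands beside this count, so it is not read as a trait of the members.

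EIF5A, which carries the hypusine residue and helps the ribosome through difficult sequences, had 393.2 and 417.9. EIF5A2 had 8.44 and 8.70, which is 47.3-fold lower, and EIF5AL1, a copy with 1 listed transcript, had 0.734 and 0.526. EIF5A was 40.1-fold above EIF5B per length (log2 5.33), with a log2 ratio of 3.50 by normalised counts. Over all families, 26 of the 27 paralogue pairs differed by more than the spread per length, and 24 did so by normalised counts. Over all pairs of protein-coding genes with a level of at least 1 in both libraries the call per length was made for 87.1%. No such share stands beside the call by normalised counts. The called paralogue pairs include those of EIF1AY, EIF4E1B, EIF4EBP3 and EIF5AL1, which do not reach that level, so the shares cover unlike sets of pairs. Only 3 of the paralogue pairs with a ratio lay within 2-fold of each other, and 2 of these were called. The pairs that were called per length and not by counts were EIF4E with EIF4E3 and EIF4E2 with EIF4E3.

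**Figure D3:**
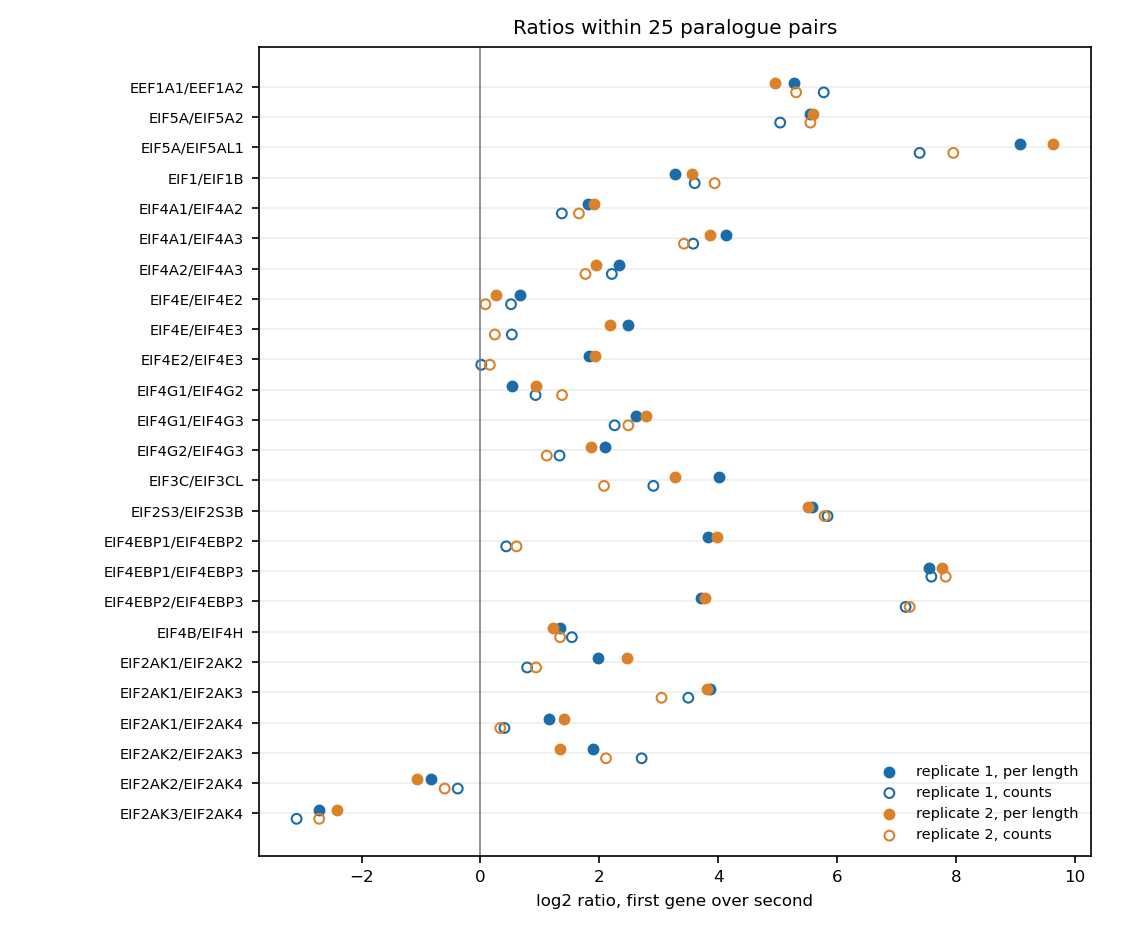
Log2 ratio of the first over the second gene for the 25 paralogue pairs with a ratio, in replicate 1 and replicate 2, from levels per length (filled) and from normalised counts (open). Ratios per length reach from -2.71 for EIF2AK3 over EIF2AK4 to 9.64 for EIF5A over EIF5AL1. The mean ratio nearest to 0 is that of EIF4E over EIF4E2 per length and that of EIF4E2 over EIF4E3 by normalised counts.

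Between the libraries, 0 of the 60 members whose mean normalised count was at least 10 differed by more than 2-fold, where 5.76% of the 19110 genes with that mean did. On protein-coding transcripts alone EEF1A1 differed by 3.73 on the log2 scale, as described for its transcripts below. Among protein-coding genes with a mean of at least 100 the share was 0.856%, and 0 of 58 members were in it. The median absolute log2 difference was 0.23 for the members, beside 0.29 for all genes with a mean of at least 10, 0.27 for genes within the members' range of means and 0.25 for protein-coding genes with a mean of at least 100. The largest difference belonged to EIF3CL, at 0.73 (log2 of replicate 2 over replicate 1), described above. The next were EIF4E with 1618 and 1009.9 normalised counts (-0.68), EIF1AX with 5155 and 3265 (-0.66), EIF3E with 8986 and 5712 (-0.65) and EIF3F with 336 and 221 (-0.60).

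Most members were lower in replicate 2. This was so for 47 of the 58 members with a mean of at least 100, or 81.0%, beside 60.7% of the 11565 protein-coding genes with that mean. The median log2 difference was -0.20 for the members and -0.11 for these genes. With estimated counts scaled to equal library totals, 69.0% of the members and 52.7% of the genes were lower in replicate 2, with medians of -0.12 and -0.02.

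**Figure D4:**
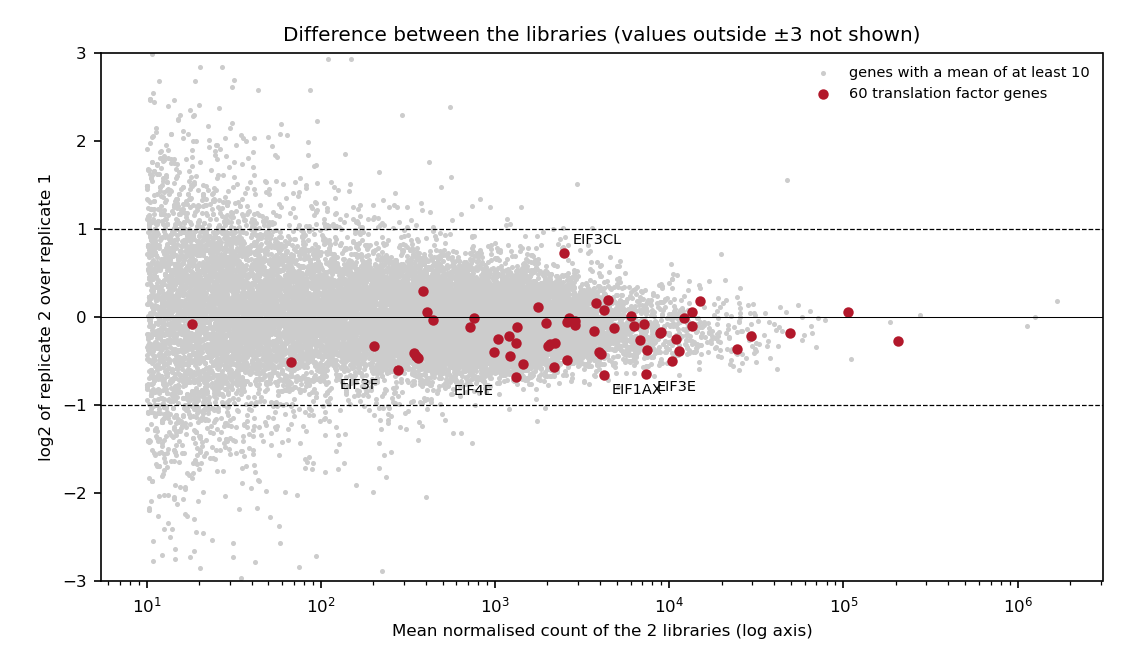
Log2 of replicate 2 over replicate 1 against the mean normalised count (log axis) for genes with a mean of at least 10 (grey) and the 60 translation factor genes (red), with dashed lines at 2-fold. All red points lie between the dashed lines, and the 5 named genes are those with the largest differences; 42 grey points beyond the axis are not shown.

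Transcript models add a second view. For 53 of the 56 members with several listed transcripts and a mean of at least 100, the same transcript led in both libraries. The share was 84.3% over the 10890 protein-coding genes of this kind and 81.5% over 14518 genes of any class with a mean of at least 10. The 3 exceptions were EEF1A1, EIF2A and EIF3J. In EEF1A1 the transcript EEF1A1-208, annotated as retaining an intron, led in replicate 1 with 143086 normalised counts and had 76978 in replicate 2, whereas the protein-coding EEF1A1-203 had 3492 and 78985. The gene totals lay closer together, at -0.27 on the log2 scale. In EIF2A the leaders were EIF2A-201 (984 and 314) and EIF2A-211 (607 and 663), a model marked for nonsense-mediated decay. In EIF3J both leaders were protein-coding, EIF3J-201 (870 and 472) and EIF3J-202 (385 and 512).

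The median share of counts on protein-coding transcripts was 92.6% over the 56 members with several transcripts and a mean of at least 100, beside 91.6% over the 10890 protein-coding genes of this kind. In 7 of the 56 members the share was under 50%, as in 9.55% of the 10890 genes. The lowest shares were those of EIF3L (4.37% and 3.87%), EIF1 (14.1% and 11.5%), EIF4EBP1 (18.4% and 25.5%), EEF1A1 (2.72% and 43.5%) and EIF2B2 (24.9% and 21.4%). EIF1 and EIF4EBP1 had most counts on models whose coding sequence is not defined, at 61.99% ± 2.13 and 78.0% ± 5.04 (SD, n = 2). Retained-intron models held more than 20% of the counts in 11 of the 56 members, beside 9.36% of these genes. Their share was highest in EEF1A1 (97.3% and 56.5%), EIF3L (74.3% and 78.8%), EIF2B2 (44.2% and 46.6%), EEF1D (44.1% and 46.1%) and EIF3F (35.5% and 35.1%). The canonical transcripts of EIF3L and EIF3F were not among those summed. The classes are those of GENCODE v44, which is later than the annotation the counts were made with, and rRNA-depleted total RNA also holds unspliced RNA.

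**Figure D5:**
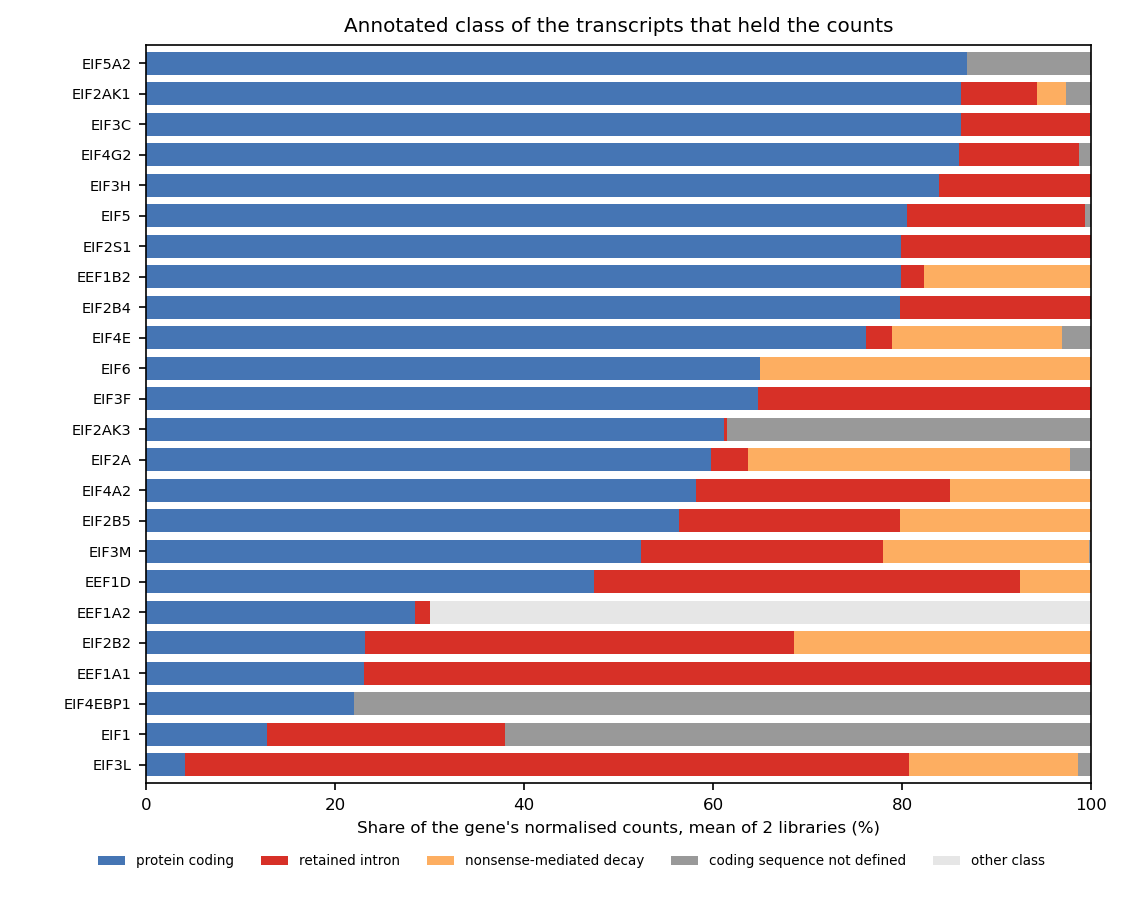
Share of normalised counts (%, mean of 2 libraries) on transcripts of each annotated class for the 24 members with a mean of at least 100 and a protein-coding share under 90%. EIF3L, EIF1, EIF4EBP1, EEF1A1 and EIF2B2 stand at the bottom with 4.12% to 23.2% protein-coding, and the other class of EEF1A2 is a non-stop decay model.

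Within 9 members lie 19 genes of small nucleolar or Cajal body RNAs on the same strand, and 7 of these RNAs had a mean of at least 10 normalised counts. No share over all genes or over all such RNAs stands beside these counts, so they are not read as a trait of the members. In EIF4A1, SNORA48 had 732 and 1017, SNORD10 had 569 and 523 and SNORA67 had 130.02 and 326.5. In EIF4A2, SNORA63 had 666 and 570.4 and SNORA81 had 78.7 and 141.6, and in EIF4G2, SNORD97 had 569.6 and 370.9. The seventh was an unnamed small RNA gene in EIF1AX, with 68.8 and 54.7. The median retained-intron share was 4.08% in the 9 hosts and 1.90% in the 51 other members with a mean of at least 10. In replicate 1 these medians were 3.14% and 1.21%, and in replicate 2 they were 5.01% and 2.33%. In the 4 hosts of an RNA at that mean it was 9.82%, beside 2.23% in all other members. Over the 12917 protein-coding genes with several transcripts and that mean the median was 1.13%. EIF4A2 was highest among the hosts at 26.9% ± 5.02 (SD, n = 2).

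For context, 36 other genes of cytosolic translation and its mitochondrial counterparts had a median level of 22.3. None of the 36 differed by more than 2-fold between the libraries, and 26 were lower in replicate 2. Over the protein-coding genes with a mean of at least 100 these shares were 0.856% and 60.7%. The poly(A)-binding line was highest, from PAIP1 at 43.4 ± 6.79 to PABPC1 at 504 ± 15.5. Release and recycling factors reached from GSPT2 at 2.69 ± 0.187 to GSPT1, an eRF3, at 143 ± 22.7. Scanning and re-initiation factors reached from DHX29 at 5.42 ± 0.936 to DDX3X at 128 ± 6.65. The enzymes that modify the elongation factors lay between EEF1AKMT3 at 3.76 ± 0.0911 and DPH5 at 26.3 ± 4.84, while the hypusine enzymes of eIF5A were DHPS at 42.9 ± 3.67 and DOHH at 3.29 ± 1.34. The eIF4E kinases MKNK1 and MKNK2 had 12.6 ± 0.378 and 12.2 ± 0.287, and the eIF2 alpha phosphatase subunits PPP1R15A and PPP1R15B had 8.74 ± 0.902 and 23.5 ± 3.27. Among the mitochondrial counterparts, TUFM, the mitochondrial elongation factor Tu, was highest at 234 ± 19.8 and MTIF3 lowest at 9.48 ± 0.404 (SD, n = 2 throughout).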

How the data were processed

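Total RNA was depleted of rRNA and made into TruSeq libraries per the labels. The authors estimated counts per transcript with RSEM, and the deposited expected counts have 2 decimals. The second deposited column, a normalised signal named for EBSeq, is the count divided by 1 size factor per library (0.945 and 1.08). The submitters' processing notes name STAR 2.7.0d, RSEM 1.3.3, R 3.6.3 and FastQC. The study names GRCh38. The strand setting was not given in the sources used here.

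Identifiers, with versions dropped, were looked up in GENCODE v44, which placed 202217 of 206696 transcripts (173547 with the same version). Of the rest, 160 are Y copies of pseudoautosomal transcripts. Levels were computed as described above without an effective length. Normalised counts were compared between the libraries without a pseudocount for genes with a mean of at least 10. A difference between genes was called when its sign was shared by the libraries and the means differed by more than the sum of the SDs. Promoter sequences came from RefSeq (GRCh38.p14). Python 3.11.15, numpy 2.4.6 and pandas 2.3.3 were used.

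The members and lists were chosen with earlier results of these data known. Every member was named within its group, with values in both libraries for paralogue pairs, complex subunits, the 5 largest differences between the libraries, changed leading transcripts, and the 5 lowest protein-coding and 5 highest retained-intron shares. Pairs across factors and the start pattern were chosen after values were seen. Alternatives covered units, transcript sets, lengths, pseudogenes, scalings, filters, call rules and each library alone. The tables of METTL8 transcripts were not used.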

Additional observations from a re-analysis of the deposited data

Results flagged for a closer look

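Counts outside the sums per gene were present in both libraries, in data the comparisons above do not use. Transcripts whose identifier has no match in GENCODE v44 took 779798 and 848631 estimated counts, which is 3.10% and 3.13% of the totals. They could not be given to a gene, and how many belong to translation factors was not tested. The readthrough gene ANKHD1-EIF4EBP3, which the rule for members leaves out, held 615.23 and 881.66 estimated counts, whereas EIF4EBP3 itself had 17.67 and 19.09. The readthrough gene SENP3-EIF4A1 held 18.49 and 86.84 estimated counts. The group held 2 libraries, so no library was examined for standing apart.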

How the results depend on the processing

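No paired analysis was possible because there is 1 group of 2 libraries and no second group. Each library alone gave log2 ranges of 6.97 to 7.24 for eIF3, 1.39 to 1.88 for eIF2B, 1.21 for eIF2 and 1.98 to 2.04 for eEF1B, elongation shares of 55.3%, EEF1A1 shares of 27.3% to 28.6%, median protein-coding shares of 93.2% to 93.6% and retained-intron shares of the hosts of 3.14% to 5.01%. The number of paralogue pairs called stayed between 24 and 27 of 27, with 22 of 23 on same-version transcripts, and that of eIF3 pairs between 61 and 70 of 78 under the alternatives run on all subunits. Of the 240 values of single pairs under alternatives, 222 kept direction and call, and 60 differed from the main ratio by over 1.5-fold.

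With normalised counts the log2 ranges were 5.61 (eIF3), 2.14 (eIF2) and 3.03 (eEF1B), and the shares 59.7% (elongation) and 32.3% (EEF1A1). With protein-coding transcripts only they were 8.50 (eIF3), 4.08 (eIF2B, with EIF2B2 lowest), 2.23 (eIF2) and 3.31 (eEF1B), and 47.2% and 9.43%, with log2 ratios of -1.86 for EEF1A1 over EEF2 and -1.82 over EEF1G. With 200 nt less length they were 7.499 (eIF3), 1.28 (eIF2) and 1.67 (eEF1B), and 53.8% and 25.1%. With canonical lengths they were 7.67 (eIF3), 2.40 (eIF2) and 3.56 (eEF1B), and 55.6% and 23.1%, with log2 ratios of -1.03 for EIF4E over EIF4E2 and -0.013 for EEF2 over EEF1G. With same-version transcripts eIF2 could not be computed because EIF2S2 lacks such a transcript, and eIF3 because that of EIF3I is at 0 in replicate 1. The log2 ranges were 2.05 (eIF2B) and 8.73 (eEF1B, EEF1B2 over EEF1G), and the shares 19.5% and 0.295%. The log2 ratios of EEF1A1 were -2.53 over EEF1A2 and -4.17 over EEF2. This set leaves out the leading transcripts of EEF1A1 and EEF1G. With pseudogenes added the log2 ranges were 4.94 (eIF3, EIF3A lowest) and 1.10 (eIF2), and the shares 63.1% and 40.96%. Without EIF3F, EIF3I and EIF3L, added after seeing the data, the eIF3 range was 4.76.

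At a 1.5-fold limit 5 of 60 members differed between the libraries, beside 3321 of 19110 genes. At 2-fold without a filter 1 of 62 members (EIF4E1B) differed, beside 7595 of 34959 genes. On protein-coding transcripts 1 of 60 members (EEF1A1) differed by 2-fold, beside 676 of 13484 genes. The other scalings and filters gave 0 members, beside 1166 of 19116 genes with equal library totals and 151 of 12669 at a mean of at least 100. The median protein-coding share, 93.7% over 60 members including 4 with 1 listed transcript, was 85.7% per length, 93.1% at a mean of at least 100 and 65.5% on same-version transcripts. The hosts' retained-intron share was 12.3% per length, 22.6% on same-version transcripts and, an alternative added later, 9.82% for hosts of an RNA at a mean of at least 10. The cause of these shifts was not tested. With 2 libraries the depth of genes such as EIF1AY, EIF4E1B and EIF4EBP3 gives no ratio or an imprecise one.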
